A study of Homo sapiens with 24 samples.

Results

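Sensors of foreign RNA and DNA are proteins that recognise nucleic acid of viral or misplaced origin. The 10 genes described here, of 39321 in the count table, were taken by name: *RIGI*, *IFIH1*, *DHX58*, *TLR3*, *CGAS*, *STING1*, *IFI16*, *ZBP1*, *EIF2AK2* and *ADAR*. Poly(A) RNA was sequenced from 24 libraries of established clear cell renal cell carcinoma lines, 12 labelled A498 and 12 labelled 786-O. In each line 3 libraries were made of cells with control siRNA (Cnsi), control siRNA and IFNγ (Cnsi IFNγ), PD-L1 siRNA (PD-L1si), or PD-L1 siRNA and IFNγ (PD-L1si IFNγ). Every group received a pool of siRNA at 20 nM with the lipid reagent Lipofectamine RNAiMAX, and the IFNγ groups were given the cytokine at 50 ng/mL for 24 hours, starting 24 hours after transfection. The labels call the PD-L1 groups knockout, their extraction protocol names 3 groups without PD-L1si, and they describe luciferase-expressing derivatives without saying whether these were sequenced. The comparisons ask how the sensors respond to IFNγ and whether their level or that response differs between PD-L1 siRNA and control siRNA. Silencing of PD-L1 and any other difference between the control pool and the PD-L1 pool cannot be told apart. Introduced RNA is a possible ligand of several of these proteins. No untransfected library was analysed here, so transfection and the baseline level of a sensor cannot be told apart.

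The sensors divide by ligand and by what they switch on. RIG-I (*RIGI*) and MDA5 (*IFIH1*) are cytosolic helicases that bind double-stranded RNA and signal through MAVS to interferon genes, with LGP2 (*DHX58*) as a regulator, while TLR3 reads double-stranded RNA in endosomes. cGAS (*CGAS*) binds DNA in the cytosol and makes a cyclic dinucleotide that activates STING (*STING1*), and IFI16 is a further DNA-binding protein. ZBP1 binds nucleic acid in the Z form, PKR (*EIF2AK2*) is a kinase that stops translation when it meets double-stranded RNA, and ADAR edits such RNA, which limits its recognition as foreign; many of these genes are themselves induced by interferons.

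The line labels were set against marker genes before the sensors were compared. *PAX8*, a transcription factor of renal epithelium, was present in all 24 libraries, at 198 ± 2.03 CPM (counts scaled to the TMM library size; SD, n = 3) in the Cnsi libraries labelled A498, with 214 ± 8.95 for the 786-O label. Of the 10 renal tumor markers looked at, *PAX2* and *CDH2* are listed at 0 labelled 786-O, *NDUFA4L2* was at 0.165 ± 0.111 CPM there, and *CA9* was at 0.73 ± 0.0455 CPM labelled A498. The leukocyte gene *PTPRC* had at most 3 counts in a library, and 9 of 12 markers of leukocytes and endothelium had at most 10. A498 is known to carry wild-type p53 and 786-O mutant p53, yet 7 of the 9 p53 targets with counts in both had a higher mean CPM in the Cnsi libraries labelled 786-O, among them *MDM2* (154 ± 2.34 against 79.6 ± 1.78 CPM) and *TP53I3* (27.1 ± 1.15 against 1.38 ± 0.224 CPM; SD, n = 3). *ZMAT3* (77.3 ± 1.43 against 151 ± 1.73 CPM) and *TP53INP1* (20.1 ± 0.36 against 52 ± 0.631 CPM) went the other way, and *CDKN1A*, at 422 ± 5.75 CPM labelled A498, is listed at 0 labelled 786-O and was left out. CPM was scaled within each line, and genes listed at 0 in 1 line raise the share of the rest there, so these levels were set side by side without a test. The identity of the lines was not settled, and they are named here only as labelled. The methods place each line on its own sequencing instrument, and line and instrument cannot be told apart.

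A further property of the table limits 1 sensor. In the 12 libraries labelled 786-O, 1475 genes with over 1000 summed counts in the libraries labelled A498 are listed at 0, while 35 genes are listed so in the other direction. They include *ACTB*, which every cell expresses and which had 53799 to 95551 counts in the libraries labelled A498, and *IFNGR1*, a chain of the IFNγ receptor, with 541 to 1238. *TLR3* is among them: it had 464 to 1234 counts in the libraries labelled A498 and is listed at 0 in each of the 12 labelled 786-O, so nothing is said of its expression there. Total counts per library ran from 19256316 to 30350461. The labels do not say that the 3 libraries of a group came from separate cultures, so the spread behind every test may be technical.

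*CD274*, the gene of PD-L1 (chromosome 9, 5450503 to 5470566, plus strand, GRCh38), was lower in every PD-L1si library than in every Cnsi library of the same line and IFNγ state. In the libraries labelled A498 it stood at 3.99, 5.49 and 5.74 CPM in Cnsi, 0.81, 1.01 and 0.926 in PD-L1si, 191, 199 and 191 in Cnsi IFNγ, and 26.9, 28.5 and 27.7 in PD-L1si IFNγ. In those labelled 786-O it stood at 3.87, 4.18 and 4.18 CPM in Cnsi, 1.46, 1.21 and 1.9 in PD-L1si, 55.7, 59.6 and 65.8 in Cnsi IFNγ, and 32.7, 30.8 and 30.6 in PD-L1si IFNγ. No group overlapped another within a line. With PD-L1 siRNA under IFNγ the gene fell by 2.81 (SE 0.0547) on the log2 scale in the libraries labelled A498 and by 0.94 (SE 0.0702) in those labelled 786-O, a difference of 1.87 (SE 0.091, adjusted p = 3.11e-18 by edgeR's quasi-likelihood test, Benjamini-Hochberg adjusted). Without IFNγ the difference between the lines was 1.06 (SE 0.243), so the depth of silencing differed between them in both states.

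Without IFNγ the levels of the sensors spread widely. Exon length here joins the exons of all annotated isoforms of a gene, so the order per kilobase depends on it. Per kilobase of exon, *ADAR* was highest in the Cnsi libraries of both lines, at 25.8 ± 0.103 CPM per kb (SD, n = 3) labelled A498 and 32.2 ± 0.612 labelled 786-O. *IFI16* followed at 24.2 ± 1.34 and 21.8 ± 1.32, then *STING1* at 11.1 ± 0.36 and 13.1 ± 0.45, and *EIF2AK2* at 8.63 ± 0.154 and 8.2 ± 0.172 CPM per kb. The cytosolic RNA helicases were scarcer. In the libraries labelled A498 *IFIH1* was at 4.21 ± 0.0642, *TLR3* at 2.97 ± 0.183, *DHX58* at 1.85 ± 0.214, *CGAS* at 1.8 ± 0.246 and *RIGI* at 1.5 ± 0.076 CPM per kb, and the ranges of *DHX58* and *CGAS*, and of *CGAS* and *RIGI*, overlapped. In those labelled 786-O the order below *EIF2AK2* was *DHX58* at 5.12 ± 0.0416, *IFIH1* at 3.45 ± 0.0728, *CGAS* at 2.67 ± 0.0998 and *RIGI* at 1.82 ± 0.0775 CPM per kb, with no overlap between neighbours. In CPM, not divided by length, *RIGI* labelled A498 (15.5 ± 0.786) stood above *DHX58* (7.06 ± 0.817) and *CGAS* (7.53 ± 1.03). Labelled 786-O it was at 18.8 ± 0.802 CPM, above *CGAS* (11.1 ± 0.417) and beside *DHX58* (19.6 ± 0.159). *ZBP1* was last of the measured sensors, with 0 counts in all 3 Cnsi libraries labelled A498 and 0, 0 and 1 in the Cnsi libraries labelled 786-O.

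**Figure D1:**
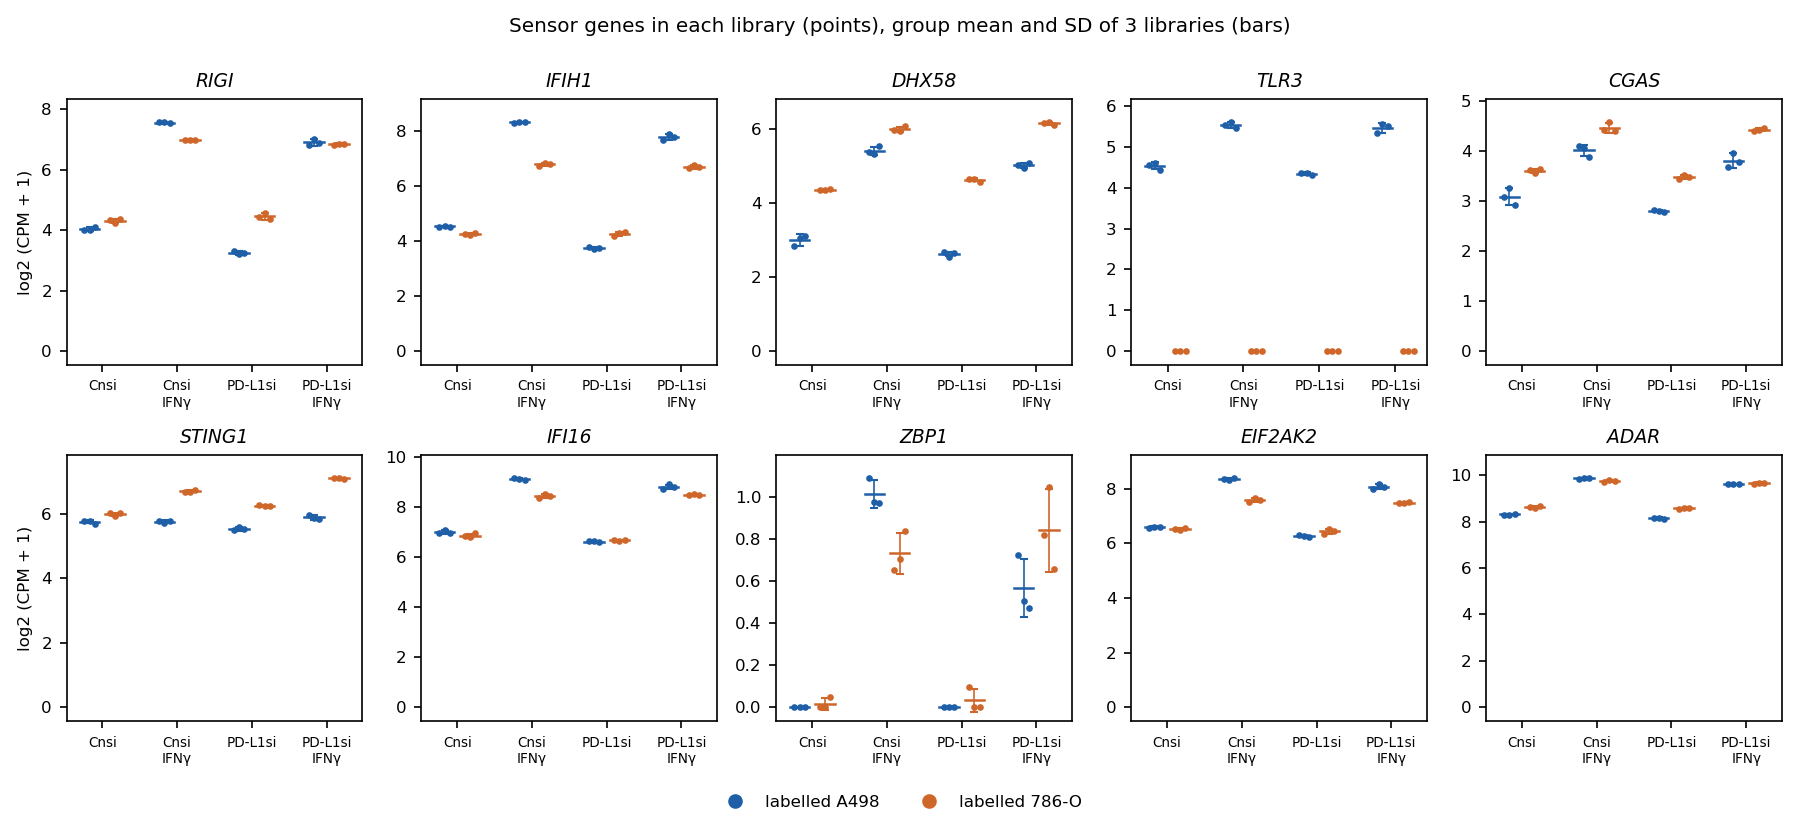
Level of the 10 sensors as log2 (CPM + 1) in each of the 24 libraries, with 1 panel per gene, the 4 groups on the horizontal axis, blue for libraries labelled A498 and orange for 786-O; bars give the group mean and SD of 3 libraries. *RIGI* and *IFIH1* stand far higher with IFNγ in both lines, *STING1* does not move with IFNγ in the Cnsi libraries labelled A498, and *TLR3* is listed at 0 in all libraries labelled 786-O.

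IFNγ raised nearly the whole group. In the Cnsi libraries labelled A498, 9 of 10 sensors rose and 0 fell, against 18.2 percent of the 20916 genes tested that rose; a gene was counted when its adjusted p was under 0.05 and its log2 fold change beyond 0.5. The exception was *STING1*. In those labelled 786-O, 9 of the 9 sensors tested rose, against 11.1 percent of 21209 genes. The median log2 fold change of the sensors labelled A498 was 1.95, where the median of all genes was -0.03. The median of the sensors was the same with *ZBP1* set against a floor of 3 counts in its group at 0. Labelled 786-O, sensors other than *ZBP1* ran from 0.71 to 2.74, where the median of all genes was 0.00. Bulk counts cannot tell more RNA per cell from more cells that express a gene.

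With control siRNA, *RIGI* and *IFIH1* showed the largest changes among sensors other than *ZBP1* in both lines. *RIGI*, the gene of RIG-I (ENSG00000107201.10, chromosome 9, 32455302 to 32526208, minus strand), had 15.1, 15 and 16.4 CPM in the Cnsi libraries labelled A498 and 189, 191 and 185 with IFNγ. In those labelled 786-O it had 19.1, 17.9 and 19.5 CPM in Cnsi and 126, 125 and 127 with IFNγ. The groups were far apart in both lines and the 3 replicates lay close together, a 12.2-fold rise (log2 fold change 3.61, SE 0.0569, adjusted p = 1.99e-34 by edgeR's quasi-likelihood test, Benjamini-Hochberg adjusted) in the former and a 6.68-fold rise (2.74, SE 0.0573, adjusted p = 3.78e-23) in the latter.

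*IFIH1*, the gene of MDA5 (ENSG00000115267.8, chromosome 2, 162267074 to 162318684, minus strand), had 21.9, 22.4 and 21.8 CPM in the Cnsi libraries labelled A498 and 310, 319 and 315 with IFNγ. In those labelled 786-O the values were 18.1, 17.6 and 18.4 CPM in Cnsi and 104, 114 and 109 with IFNγ. The IFNγ libraries lay above all Cnsi libraries in both lines. The gene rose by a log2 fold change of 3.84 (SE 0.0535) labelled A498 and 2.60 (SE 0.0594) labelled 786-O. *DHX58*, the gene of LGP2, went from 6.14, 7.36 and 7.69 CPM to 41, 39.5 and 45.8 in the libraries labelled A498, and from 19.5, 19.5 and 19.8 CPM to 61.8, 61.3 and 66.6 in those labelled 786-O. The groups did not overlap, and the gene rose by 2.57 (SE 0.077) and 1.69 (SE 0.0554) on the log2 scale.

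The promoters were searched for motifs of interferon response. RefSeq start sites on GRCh38.p14 were matched for 6 of the 10 genes (*RIGI*, *IFIH1*, *TLR3*, *IFI16*, *EIF2AK2* and *ADAR*), with a window from 250 bases before to 50 after the start. The window was searched on both strands for the pair GAAA and GAAA with 2 bases between them, a core of the interferon-stimulated response element, and for TTC and GAA with 3 bases between them, the gamma-activated sequence; matches of the pair can overlap each other. Of 27305 promoters, 3.65 percent hold the first and 7.88 percent the second. *IFIH1* held the pair at 3 places, *TLR3* at 1 and *EIF2AK2* at 1, *TLR3* also held the gamma-activated sequence at 2 places, and neither was found in the windows of *RIGI*, *IFI16* and *ADAR*. Each stretch is given 5′ to 3′ along the gene with the matched letters in capitals; the first is at chr2:162318685-162318784 and holds the 100 bases before the start of *IFIH1* (minus strand), the second is at chr2:162318821-162318850 and covers the pair of matches that overlap further upstream.
IFIH1: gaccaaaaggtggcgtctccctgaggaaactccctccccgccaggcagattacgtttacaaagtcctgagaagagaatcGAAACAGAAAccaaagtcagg
IFIH1: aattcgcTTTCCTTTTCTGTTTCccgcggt

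The matches of *TLR3* (plus strand) at chr4:186069096-186069124 and across the start site at chr4:186069142-186069171, and that of *EIF2AK2* (minus strand) at chr2:37156967-37156996, also across its start, read as follows. The first *TLR3* stretch holds 1 of its 2 gamma-activated sequences and the other stretches the pair. A match describes the letters only, and binding was not measured.
TLR3: ccctttgcccTTCTTGGAAtgcaccaaac
TLR3: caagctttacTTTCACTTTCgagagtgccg
EIF2AK2: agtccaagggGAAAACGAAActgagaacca

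*TLR3*, the endosomal receptor for double-stranded RNA (ENSG00000164342.12), rose 2.05-fold in the libraries labelled A498. It had 22.6, 23.5 and 20.8 CPM in Cnsi and 45.6, 47.9 and 43.1 with IFNγ, groups that did not overlap (log2 fold change 1.03, SE 0.0619). It was not tested in the libraries labelled 786-O, where it is listed at 0.

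The DNA sensors moved unequally. *CGAS*, the gene of the enzyme that detects cytosolic DNA (ENSG00000164430.16, chromosome 6, 73413515 to 73452297, minus strand), rose 2.02-fold from 7.53 ± 1.03 to 15.2 ± 1.28 CPM (SD, n = 3) in the libraries labelled A498 and 1.9-fold from 11.1 ± 0.417 to 21.1 ± 1.56 CPM in those labelled 786-O. The change was of like size in both lines, with a difference of -0.10 and a 95% interval of -0.33 to 0.14 on the log2 scale. *IFI16*, which binds DNA in the nucleus and the cytosol, rose 4.37-fold from 128 ± 7.11 to 558 ± 13.5 CPM labelled A498 and 3.04-fold from 116 ± 7.01 to 351 ± 17.8 CPM labelled 786-O. With IFNγ it stood highest of the 10 per kilobase in the libraries labelled A498 (105 ± 2.54 CPM per kb, above *ADAR* at 75.8 ± 1.46), while in those labelled 786-O its range overlapped that of *ADAR* (66.3 ± 3.35 and 70.7 ± 2.59 CPM per kb). In CPM *ADAR* stood above *IFI16* with IFNγ in both lines, at 928 ± 17.9 labelled A498 and 865 ± 31.8 labelled 786-O.

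*STING1*, the gene of the adaptor that cGAS activates (ENSG00000184584.13, chromosome 5, 139475533 to 139482935, minus strand), set the lines apart. In the libraries labelled A498 it had 54.3, 54 and 51.2 CPM in Cnsi and 54, 51.3 and 54.3 with IFNγ. In those labelled 786-O it had 64.6, 60.6 and 63.8 CPM in Cnsi and 102, 102 and 106 with IFNγ. The groups overlapped completely in the former, with a log2 fold change of 0.00 and a 95% interval of -0.10 to 0.10. This interval lies within the fold threshold, but it holds only the spread between these libraries, which may be technical. They were apart in the latter, a 1.64-fold rise (log2 fold change 0.71, SE 0.0463, adjusted p = 1.94e-12 by edgeR's quasi-likelihood test, Benjamini-Hochberg adjusted). The difference between the lines was 0.70 (SE 0.0655).

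*ZBP1*, the sensor of Z-form nucleic acid (ENSG00000124256.15, chromosome 20, 57603846 to 57620576, minus strand), was read almost only with IFNγ and at few counts. The 3 Cnsi IFNγ libraries labelled A498 had 27, 25 and 20 counts where Cnsi had 0, 0 and 0. Those labelled 786-O had 16, 17 and 20 counts with IFNγ and 0, 0 and 1 without. The groups did not overlap in either line. With a floor of 3 counts for a group at 0, the level with IFNγ labelled A498 was 23.3-fold the floor, scaled to total counts and without allowance for counting error. The ratio labelled 786-O was 53.3 with a 95% interval of 9.15 to 2142 (exact binomial, counting error only).

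The genes of PKR and ADAR, which both bind double-stranded RNA, rose by less than the 3 helicase genes and stood above them per kilobase in Cnsi, in each line. *EIF2AK2* (ENSG00000055332.18, chromosome 2, 37099210 to 37157522, minus strand) went from 95.2 ± 1.7 to 324 ± 9.28 CPM (SD, n = 3) in the libraries labelled A498, a 3.4-fold rise, and from 90.5 ± 1.89 to 191 ± 8.74 CPM in those labelled 786-O, a 2.1-fold rise. *ADAR* (ENSG00000160710.17, chromosome 1, 154581695 to 154628013, minus strand) went from 316 ± 1.26 to 928 ± 17.9 CPM (2.94-fold) and from 395 ± 7.49 to 865 ± 31.8 CPM (2.19-fold). Counts per gene do not separate the interferon-inducible long isoform of *ADAR* from the constitutive short one.

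**Figure D2:**
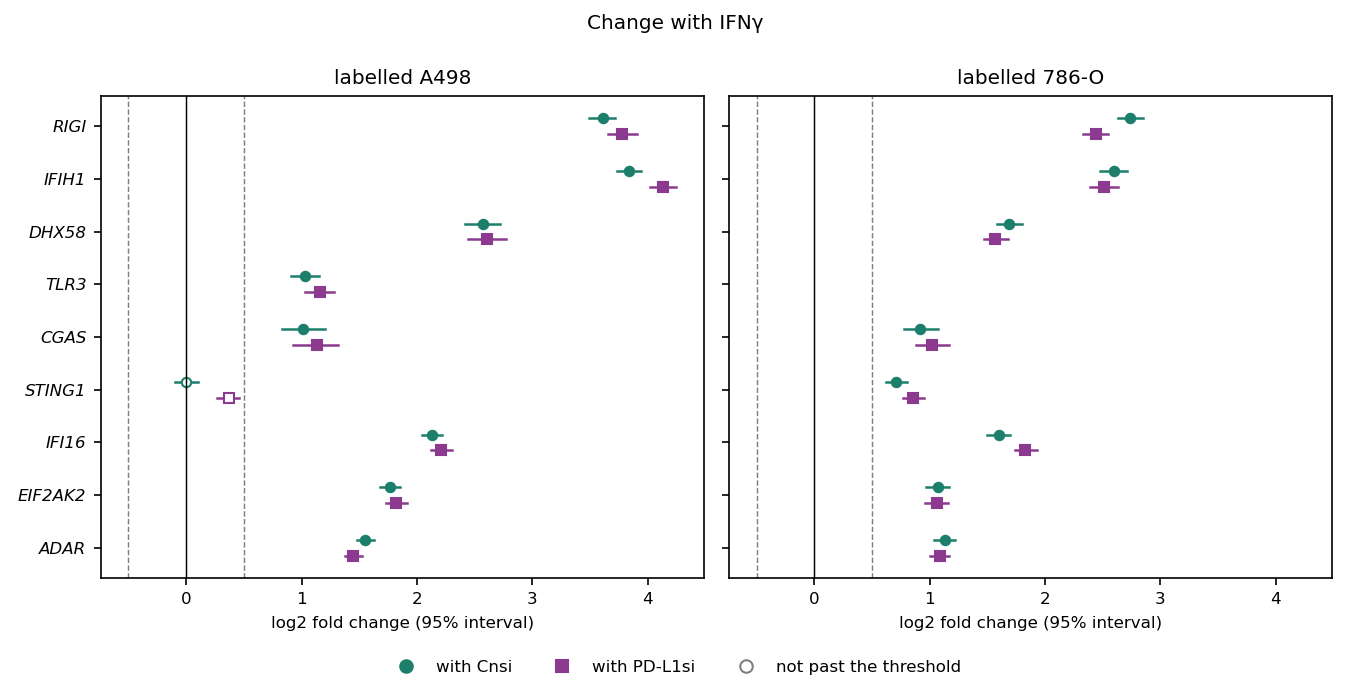
Log2 fold change with IFNγ and its 95% interval for 9 sensors (*ZBP1* left out because its groups without IFNγ are at or near 0 counts), with Cnsi as circles and PD-L1si as squares, labelled A498 on the left and 786-O on the right; dashed lines mark 0.5 in either direction and open symbols are not past the threshold. *RIGI* and *IFIH1* lie furthest right in both lines, and *STING1* is the only sensor with open symbols, both labelled A498.

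The response to IFNγ was then measured with PD-L1 siRNA. In the libraries labelled A498, 9 of 10 rose with IFNγ in PD-L1si cells, against 17.6 percent of all genes, and in those labelled 786-O 9 of 9 rose, against 11.0 percent. Log2 fold changes labelled A498 were 3.78 (SE 0.0629) for *RIGI*, 4.13 (SE 0.0576) for *IFIH1*, 2.61 (SE 0.084) for *DHX58*, 1.16 (SE 0.0638) for *TLR3* and 2.21 (SE 0.0463) for *IFI16*. Labelled 786-O they were 2.44 (SE 0.0564), 2.51 (SE 0.0593) and 1.57 (SE 0.054) for the 3 helicases in the same order. *STING1* had 44, 47.4 and 45.4 CPM in PD-L1si and 61.7, 58.3 and 56.1 with IFNγ labelled A498. These groups did not overlap, but the change of 0.37 (SE 0.05) did not reach 0.5. *ZBP1* with IFNγ in PD-L1si cells labelled A498 was 12-fold the same floor of 3 counts (31 summed counts against 0), and the ratio labelled 786-O was 33 with a 95% interval of 8.79 to 278.

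The test of whether the IFNγ response itself depended on the siRNA called 0 of the 9 sensors with a value in the libraries labelled A498 (2.45 percent of all genes) and 0 of 9 in those labelled 786-O (0.0990 percent), by edgeR and by DESeq2. At an unadjusted p under 0.05, 2 sensors passed in the former and 3 in the latter, a cut for which the share of all genes was not counted. At an adjusted p under 0.05 and any fold, 2 passed in the former (9.08 percent of all genes) and 0 in the latter (0.217 percent). The 2 were *STING1*, whose response was 0.37 larger on the log2 scale with PD-L1si (SE 0.0703, adjusted p = 0.000422 by edgeR's quasi-likelihood test, Benjamini-Hochberg adjusted), and *IFIH1*, whose response was 0.29 larger (SE 0.0807, adjusted p = 0.0153). Neither reached the fold threshold, and adjusted p for *IFIH1* reached 0.0853 over the alternatives by edgeR or DESeq2. For *RIGI* labelled 786-O the response was lower by -0.30 (SE 0.0794, adjusted p = 0.162 by edgeR's quasi-likelihood test, Benjamini-Hochberg adjusted), a value that did not pass. The other 2 at an unadjusted p under 0.05 labelled 786-O were larger with PD-L1si, *IFI16* by 0.23 (95% interval 0.10 to 0.37) and *STING1* by 0.14 (0.02 to 0.27), and did not pass either.

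With PD-L1 siRNA, 2 of the 3 helicase genes, *RIGI* and *IFIH1*, fell in the libraries labelled A498. Without IFNγ, 2 of the 9 sensors with reads fell and 0 rose, where 5.60 percent of all genes fell, and under IFNγ 3 of 10 fell and 0 rose, where 5.75 percent fell. *RIGI* had 15.1, 15 and 16.4 CPM in Cnsi and 9.02, 8.17 and 8.55 in PD-L1si. Under IFNγ it had 189, 191 and 185 CPM with control siRNA and 111, 129 and 117 with PD-L1 siRNA. Every PD-L1si library lay below every Cnsi library in both states. The gene fell to 0.555 of the control level without IFNγ (log2 fold change -0.85, SE 0.0774, adjusted p = 4.46e-11 by edgeR's quasi-likelihood test, Benjamini-Hochberg adjusted) and to 0.628 of it under IFNγ (-0.67, SE 0.0463, adjusted p = 4.23e-14). The comparisons share control samples with those of IFNγ and are not independent of them.

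*IFIH1* also fell. It had 21.9, 22.4 and 21.8 CPM in Cnsi and 12.7, 12 and 12.4 in PD-L1si, and under IFNγ 310, 319 and 315 with control siRNA and 200, 235 and 216 with PD-L1 siRNA. The groups did not overlap in either state, with a log2 fold change of -0.83 (SE 0.0675) without IFNγ and -0.54 (SE 0.0439) with it. Its fall under IFNγ lies close to the fold threshold and was -0.48 without replicate 1 of PD-L1si IFNγ, which ended the call. *ZBP1* had 15, 8 and 8 counts in PD-L1si IFNγ against 27, 25 and 20 in Cnsi IFNγ. The counts did not overlap, and the log2 fold change was -1.04 (SE 0.312, adjusted p = 0.00927 by edgeR's quasi-likelihood test, Benjamini-Hochberg adjusted). This call was lost with DESeq2 (adjusted p = 0.0665) and without replicate 3 of PD-L1si IFNγ (adjusted p = 0.053 by edgeR's quasi-likelihood test, Benjamini-Hochberg adjusted), and adjusted p ran from 0.00581 to 0.0665 over all alternatives.

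The other sensors labelled A498 moved by less than the fold threshold with PD-L1 siRNA. Without regard to fold, 9 of 10 sensors had an adjusted p under 0.05 under IFNγ, where 34.1 percent of all genes did, and all 9 sensors with reads did without IFNγ, where 30.8 percent did. These calls did not all hold over the alternatives, in which the adjusted p by edgeR or DESeq2 reached 0.214 for *CGAS* and 0.106 for *STING1* under IFNγ and 0.146 for *CGAS* and 0.123 for *TLR3* without it. Under IFNγ the log2 fold changes were -0.40 (SE 0.0628) for *DHX58*, -0.30 (SE 0.043) for *IFI16*, -0.27 (SE 0.0429) for *EIF2AK2*, -0.25 (SE 0.0362) for *ADAR* and -0.23 (SE 0.0876) for *CGAS*, whose groups overlapped. *STING1* had a value of the other sign, 0.14 (SE 0.0498), while without IFNγ it was at -0.22 (SE 0.0495), and *TLR3*, with overlapping groups, one of -0.08 and a 95% interval of -0.19 to 0.04. *DHX58* without IFNγ was at -0.44 (SE 0.106), and at -0.54 and past the threshold without replicate 1 of Cnsi. The median of the 10 under IFNγ was -0.29, beside 0.01 for all genes. Without IFNγ, where *ZBP1* has no reads and no fold, the median of the other 9 was -0.34, beside -0.00 for all genes.

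In the libraries labelled 786-O, PD-L1 siRNA moved 0 of 9 sensors past the threshold under IFNγ (3.03 percent of all genes) and 0 of 9 without it (2.81 percent), by edgeR and by DESeq2. At an unadjusted p under 0.05 there were 4 in each, a cut for which the share of all genes was not counted. At an adjusted p under 0.05 and any fold there were 2 under IFNγ (14.0 percent of all genes) and 3 without it (12.8 percent). Over the alternatives the adjusted p by edgeR or DESeq2 reached 0.112 for *DHX58* under IFNγ and 0.108 for *IFI16* without it. Calls at any fold were also gained. The lowest adjusted p by edgeR or DESeq2 was 0.0178 for *ADAR* and 0.0379 for *RIGI* under IFNγ, and 0.0362 for *RIGI* without it. *RIGI* had 126, 125 and 127 CPM in Cnsi IFNγ and 113, 116 and 115 in PD-L1si IFNγ, and 19.1, 17.9 and 19.5 CPM in Cnsi and 20.9, 22.8 and 19.5 in PD-L1si. The small differences had opposite signs in the 2 states, -0.14 (95% interval -0.24 to -0.04) under IFNγ and 0.16 (0.04 to 0.28) without it. *STING1* had 102, 102 and 106 CPM in Cnsi IFNγ and 138, 138 and 135 in PD-L1si IFNγ. The groups did not overlap, at a log2 fold change of 0.41 (SE 0.0451, adjusted p = 4.95e-07 by edgeR's quasi-likelihood test, Benjamini-Hochberg adjusted) that stayed under the fold threshold. *DHX58* had 0.17 (SE 0.0506) under IFNγ and 0.28 (SE 0.0582) without it.

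**Figure D3:**
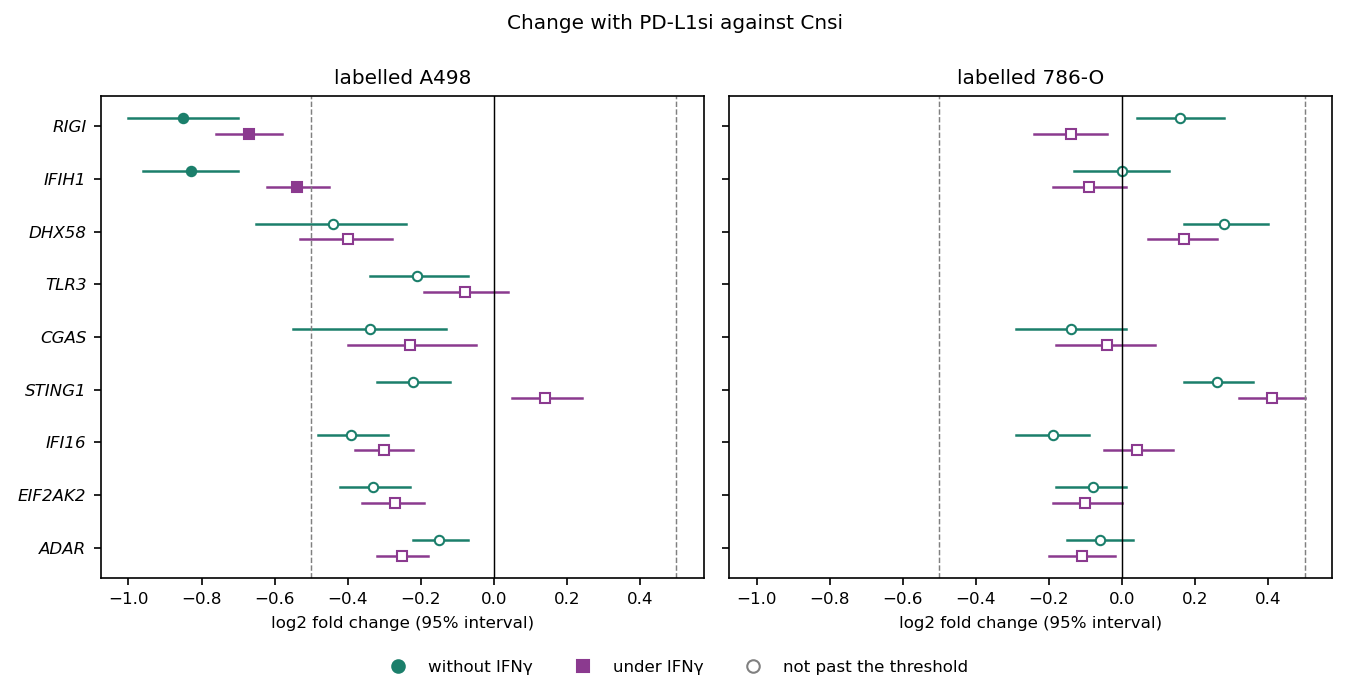
Log2 fold change of PD-L1si against Cnsi and its 95% interval for 9 sensors (*ZBP1* left out for its few counts), without IFNγ as circles and under IFNγ as squares, labelled A498 on the left and 786-O on the right; dashed lines mark 0.5 in either direction and open symbols are not past the threshold. The filled symbols are *RIGI* and *IFIH1* labelled A498, from -0.54 to -0.85, and all symbols labelled 786-O lie between the dashed lines.

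The lines were then compared in the same contrasts, as the change labelled 786-O minus the change labelled A498, in the 17999 genes tested in both and thus in 9 sensors. For IFNγ with control siRNA, 6 of 9 sensors differed past the threshold (28.4 percent of all genes). The rise was smaller labelled 786-O for *IFIH1* (-1.25, SE 0.0809), *DHX58* (-0.89, SE 0.0961), *RIGI* (-0.87, SE 0.0827), *EIF2AK2* (-0.70, SE 0.0672) and *IFI16* (-0.53, SE 0.0676), and larger for *STING1* (0.70). The *IFI16* difference was -0.49 without replicate 3 of Cnsi or replicate 1 of Cnsi IFNγ labelled 786-O, under the threshold in both. For IFNγ with PD-L1 siRNA, 4 of 9 differed (25.9 percent of all genes): *IFIH1* (-1.63, SE 0.0848), *RIGI* (-1.34, SE 0.0876), *DHX58* (-1.04, SE 0.1) and *EIF2AK2* (-0.76, SE 0.0677). *STING1* was at 0.49 (SE 0.0652) and passed, at 0.53, without replicate 1 of PD-L1si IFNγ labelled A498.

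The change with PD-L1 siRNA under IFNγ differed between the lines for 3 of 9 sensors (5.60 percent of all genes), and without IFNγ for 3 of the 8 with a value (4.48 percent). *RIGI* differed by 0.54 (SE 0.0697) under IFNγ and 1.01 (SE 0.0988) without it, and *DHX58* by 0.58 (SE 0.0807) and 0.73 (SE 0.115), each value higher labelled 786-O. *IFIH1* differed by 0.84 (SE 0.0945) without IFNγ and by 0.46 (SE 0.0693) under it, the latter short of the threshold but past it, at 0.52, without replicate 2 of PD-L1si IFNγ labelled A498. *STING1* without IFNγ differed by 0.49 (SE 0.0658), and passed at 0.52 without replicate 3 of Cnsi or replicate 2 of PD-L1si labelled A498 and at 0.51 without replicate 1 of Cnsi labelled 786-O. *RIGI* under IFNγ was at 0.50 without replicate 1 of PD-L1si IFNγ labelled A498 and then no longer past it. The *ZBP1* difference of 1.34 (SE 0.464, adjusted p = 0.0431 by edgeR's quasi-likelihood test, Benjamini-Hochberg adjusted) rests on 8 to 31 counts per library and was lost in 10 of 29 alternatives, over which adjusted p ran from 0.0238 to 0.162 by edgeR's quasi-likelihood test, Benjamini-Hochberg adjusted. These were the replicate block and the removal of any of the 3 Cnsi IFNγ libraries or replicates 2 or 3 of PD-L1si IFNγ labelled A498, or of replicates 1 or 2 of Cnsi IFNγ or of PD-L1si IFNγ labelled 786-O. Silencing of *CD274* was deeper labelled A498, as given above, and its part in these differences was not tested.

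Each sensor was compared with other genes by its pattern over the libraries. Over the 12 libraries of each line, the protein-coding genes with the highest mean Pearson r of log2 (CPM + 1) to *RIGI* were *MX1* and *PLSCR1* (mean r 0.999 for both, 9934 genes compared). For *IFIH1* they were *IFIT3* and *HLA-E*, for *DHX58* *IFI27* (0.997) and *MX1* (0.996), for *IFI16* *RFX5* and *C1R* (0.998), for *EIF2AK2* *SP100* and *SAMD9* (0.998), and for *ADAR* *DTX3L* and *IFIT2* (0.999). *CGAS* was most like *EIF2S2* and *SP100* (0.989), and *ZBP1*, at its low counts, most like *RPS6KA4* (0.984) and *MFSD12* (0.981). *STING1* had the lowest values, 0.933 for *POLD4* and 0.899 for *STAT6*. For *TLR3*, over the 12 libraries labelled A498 alone, they were *KRCC1* (0.997) and *TCEA1* (0.996). The libraries share their IFNγ and siRNA groups, so these values describe the group pattern.

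Genes that act with the sensors were followed in 10 lists compiled from general knowledge, without a test of any list. Of all genes, 18.2 percent rose and 18.5 percent fell with IFNγ in Cnsi labelled A498, and 11.1 percent rose and 7.39 percent fell labelled 786-O. Of the adaptors and kinases that carry the signal to interferon genes, 8 of 16 rose with IFNγ in the Cnsi libraries labelled A498 and 0 fell (median log2 fold change 0.50), while labelled 786-O 1 of 13 rose and 1 fell (median 0.30). *MYD88*, *TICAM1* and *TRAF3*, 3 of the 8 that rose, are listed at 0 labelled 786-O and were not tested there. The kinase gene *IKBKE* rose in both, by 0.56 (SE 0.0586) and 1.06 (SE 0.0866), and the scaffold gene *TBKBP1* rose by 1.83 (SE 0.0663) labelled A498. Of the transcription factors at the end of the pathway, 4 of 7 and 3 of 7 rose. *IRF7* went from 5.7 ± 0.586 to 49.4 ± 4.78 CPM (SD, n = 3) labelled A498 and from 15.7 ± 1.1 to 46.9 ± 0.354 CPM labelled 786-O, and *IRF3* rose by 0.94 (SE 0.051) labelled 786-O.

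Cofactors of RNA sensing rose in 6 of 14 genes labelled A498 and 4 of 13 labelled 786-O (18.2 and 11.1 percent of all genes), with none falling in either. They were led by *DDX60*, a helicase that aids RIG-I (log2 fold change 3.70, SE 0.0578, and 2.18, SE 0.0559), and *TRIM25*, a ubiquitin ligase of RIG-I (2.46, SE 0.0404, and 1.56, SE 0.0469). Of negative regulators, 5 of 11 rose and 2 fell labelled A498 (18.2 and 18.5 percent of all genes), and 3 of 10 rose and 1 fell labelled 786-O (11.1 and 7.39 percent), where *CYLD*, 1 of the 5, is listed at 0. *USP18*, which restrains interferon receptor signaling, rose by 3.23 (SE 0.0737) and 2.40 (SE 0.103), and *TNFAIP3*, which edits ubiquitin on signaling proteins, by 1.93 (SE 0.0492) and 2.28 (SE 0.0861), while *RNF5* fell by 1.18 (SE 0.0534) labelled A498 and *NLRX1* fell by 0.53 (SE 0.0649) labelled 786-O, a call lost without replicate 3 of Cnsi (-0.49) or replicate 1 of Cnsi IFNγ (-0.47). Of enzymes that remove ligands, 3 of 10 rose and 3 fell labelled A498 (18.2 and 18.5 percent of all genes), where *SAMHD1*, which degrades nucleotides, rose by 3.02 (SE 0.0412) and *ENPP1*, which cleaves the product of cGAS, fell by 1.36 (SE 0.0796). Labelled 786-O, 1 of 6 rose and 0 fell (11.1 and 7.39 percent of all genes), and 4 genes of this list, *SAMHD1* among them, are listed at 0.

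A further list held other sensors of nucleic acid. In it, 7 of 13 rose and 2 fell with IFNγ labelled A498 (median log2 fold change 2.55) and 6 of 11 rose and 0 fell labelled 786-O (median 2.13). Of all genes, 18.2 percent rose and 18.5 percent fell labelled A498, and 11.1 and 7.39 percent labelled 786-O. *OAS2*, a synthetase that double-stranded RNA activates, went from 3.41 ± 0.41 to 297 ± 6.43 CPM (SD, n = 3) labelled A498. *AIM2*, which binds DNA in the inflammasome, had 1135 summed counts with IFNγ against 4 without labelled A498 (ratio 275, 95% interval 107 to 1012, exact binomial, counting error only) and 61 against 1 labelled 786-O (ratio 61.3, 10.6 to 2460). Among effectors of ZBP1 and PKR, 5 of 7 and 3 of 5 rose (18.2 and 11.1 percent of all genes). *PPP1R15A* was at 2.28 (SE 0.0441) labelled A498 and 0.10 (SE 0.0626) labelled 786-O, *MLKL*, which ruptures the membrane in necroptosis, at 2.03 (SE 0.0605) and 1.89 (SE 0.0688) and *CASP8* at 1.29 (SE 0.0453) and 0.91 (SE 0.0606). Of the other ADAR family genes only *ADARB1* was tested, at 1.12 (SE 0.0755) labelled A498 and -0.08 (SE 0.096) labelled 786-O.

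*IFNB1* and *IFNL1*, genes of type I and III interferons that the sensors induce, had few counts. *IFNB1* summed to 12 counts over the 3 Cnsi IFNγ libraries labelled A498 and 0 over Cnsi, and to 7 and 1 labelled 786-O. The former is 3.88-fold a floor of 3 counts, scaled to total counts and without allowance for counting error. *IFNL1* summed to 25 counts with IFNγ and 1 without labelled 786-O (ratio 25.1, 95% interval 4.11 to 1031), and to 2 and 1 labelled A498. In the whole list of interferons and receptors 4 of 6 genes rose labelled A498 (18.2 percent of all genes) and 1 of 4, *IFNL1*, labelled 786-O (11.1 percent). Of the ISGF3 complex and its kinases, which pass on the interferon signal, 4 of 6 rose labelled A498 and 2 of 4 labelled 786-O (18.2 and 11.1 percent of all genes). *STAT2* rose in both, by 2.48 (SE 0.0443) and 2.37 (SE 0.0624), and *JAK2* rose by 3.07 (SE 0.0755) labelled A498 and is listed at 0 labelled 786-O.

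With PD-L1 siRNA under IFNγ the largest count of falls in these lists labelled A498 was among other nucleic acid sensors. Labelled A498, 6 of 13 of the other sensors fell, where 5.75 percent of all genes fell, and 0 rose (median -0.19), with *OAS2* at -0.59 (SE 0.0412) and *AIM2* at -0.59 (SE 0.0819). Labelled 786-O, 0 of 11 passed the threshold by edgeR, where 3.03 percent of all genes did (median -0.00), and *OAS1* and *OAS2*, 2 of the 6, are listed at 0 and were not tested there. In the other lists labelled A498, 2 of 7 transcription factors, 2 of 11 negative regulators, 1 of 16 adaptors and kinases, 1 of 14 cofactors and 1 of 7 effectors fell. Of these, *TNFAIP3* fell by 1.57 (SE 0.0488), *TRIM25* by 0.75 (SE 0.0379), *USP18* by 0.63 (SE 0.0578), *IRF7* by 0.52 (SE 0.0652) and *IKBKE* by 0.51 (SE 0.0598), and *PPP1R15A*, which reverses the translational stop of PKR, fell by 0.85 (SE 0.0416). *ENPP1* rose by 0.51 (SE 0.0903). The last call was lost, at 0.50, with DESeq2, with relative log expression and with no count filter, and, at 0.42 and 0.44, without replicate 3 of Cnsi IFNγ or replicate 2 of PD-L1si IFNγ. That of *IKBKE* was lost without either of the same libraries (-0.50 and -0.47), and that of *IRF7* without replicates 1 or 3 of Cnsi IFNγ or replicate 3 of PD-L1si IFNγ (-0.50, -0.48 and -0.49). Without IFNγ labelled A498, 5 of 13 other sensors fell, where 5.60 percent of all genes fell, and *OAS2* was at -2.50 (SE 0.173), *TNFAIP3* at -2.03 (SE 0.0618), *IRF7* at -1.34 (SE 0.141) and *IKBKE* at -0.71 (SE 0.0644), while labelled 786-O 0 of 11 passed by edgeR (2.81 percent of all genes). Under IFNγ, 1 of 5 effectors and 1 of 10 negative regulators fell labelled 786-O with PD-L1 siRNA, where 1.74 percent of all genes fell. The effector was *DDIT3*, a gene of the stress response downstream of PKR, which fell by 0.64 (SE 0.0886). Without IFNγ its change labelled 786-O was -0.48 (SE 0.0937) and did not pass. Labelled A498 *DDIT3* was at -0.47 (SE 0.0436) under IFNγ, short of the fold threshold, and at -1.01 (SE 0.0552), past it, without IFNγ. *PPP1R15A* labelled 786-O was at -0.40 (SE 0.0636) under IFNγ and -0.46 (SE 0.0636) without it, both short of the fold threshold.

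**Figure D4:**
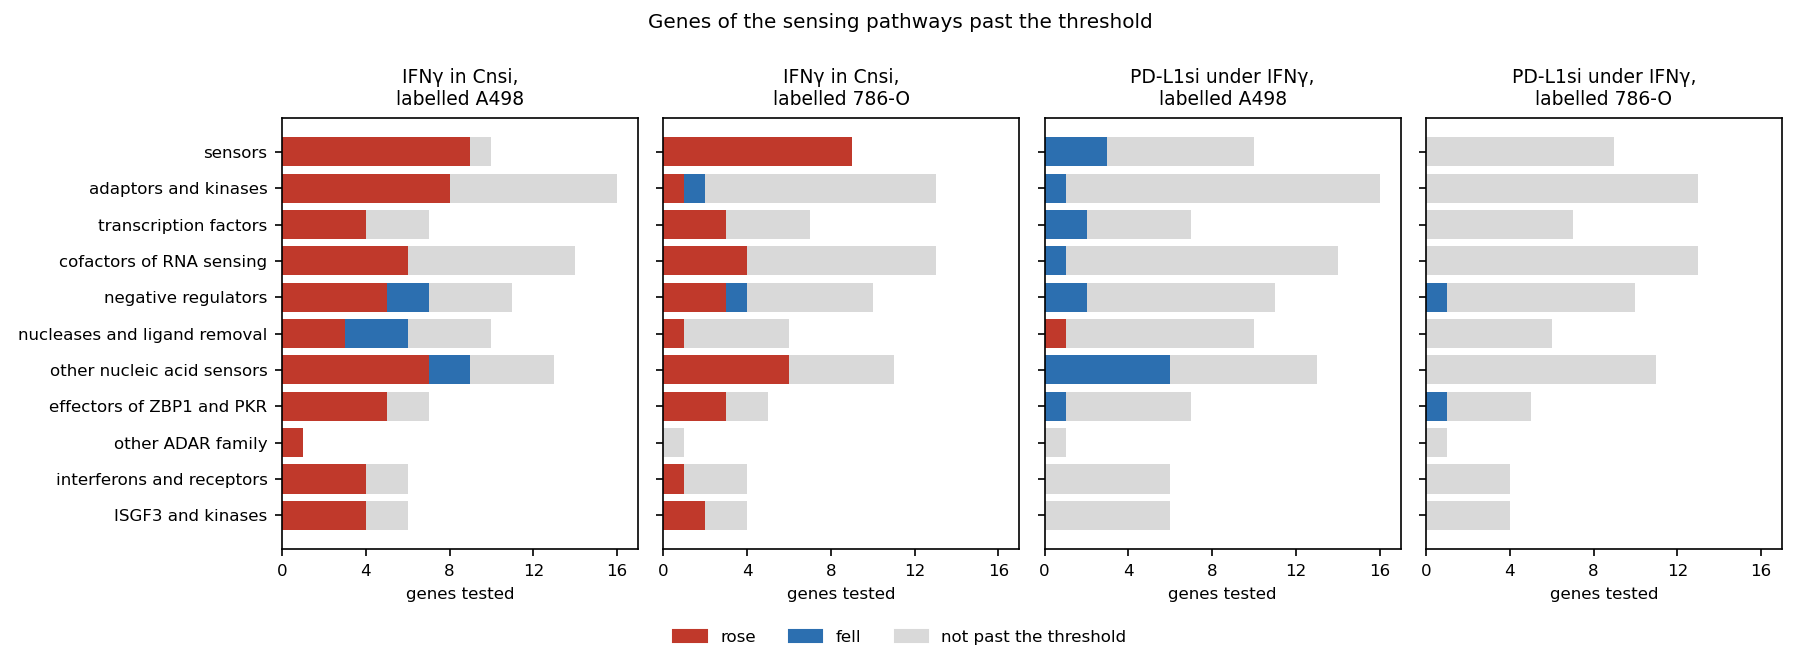
Number of genes tested in the sensors and in 10 lists of genes that act with them (horizontal axis), with those that rose in red, those that fell in blue and those not past the threshold in grey, for IFNγ in Cnsi and for PD-L1si under IFNγ in each line. Red fills 9 of 10 and 9 of 9 of the sensor bars for IFNγ, and blue is longest among other nucleic acid sensors for PD-L1si labelled A498, at 6 of 13.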

How the data were processed

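The authors trimmed reads with Trimmomatic 0.36.6, aligned them to GRCh38 with HISAT2 2.1.0 and counted them on GENCODE genes with featureCounts 1.6.3 in stranded mode, per the submitters' processing notes and the methods; the deposited values are these raw counts per gene. All 24 columns were matched to samples by their labels. Gene positions and exon lengths came from GENCODE 44, where the length counts each base in any exon of any isoform of a gene. In R 4.3.3, edgeR 4.0.16 was fitted per line on genes with at least 10 summed counts in a group, with TMM scaling, robust quasi-likelihood tests and Benjamini-Hochberg adjustment over all genes; differences between lines came from 1 model of 24 libraries. The SE of a log2 fold change was derived from the test, as its absolute value divided by the square root of the F statistic. Intervals of log2 fold changes are the value ± 1.96 SE. CPM were scaled within a line, so levels were not tested across lines. The fit was tested on simulated data. Genes named were the 10 sensors, *CD274*, the most similar genes and, per list and line, up to 2 rising and 2 falling genes with the largest change with IFNγ past the threshold, and any past it alike in both lines with PD-L1si under IFNγ, which added none; *ACTB*, *IFNGR1* and the marker genes shown were chosen after their values were seen. The members and lists were chosen with earlier results of these data known. Alternatives were DESeq2 1.42.0, relative log expression, other filters, other thresholds, protein-coding genes only, only the groups compared, a replicate block and each library left out.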

Additional observations from a re-analysis of the deposited data

Results flagged for a closer look

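The tests of the difference between lines, labelled 786-O minus labelled A498, passed the threshold for 16 changes of sensors, given here as log2 values. With IFNγ and control siRNA these were *IFIH1* (-1.25), *DHX58* (-0.89), *RIGI* (-0.87), *EIF2AK2* (-0.70), *IFI16* (-0.53) and *STING1* (0.70). With IFNγ and PD-L1 siRNA they were *IFIH1* (-1.63), *RIGI* (-1.34), *DHX58* (-1.04) and *EIF2AK2* (-0.76). With PD-L1 siRNA under IFNγ they were *ZBP1* (1.34), *DHX58* (0.58) and *RIGI* (0.54), and without IFNγ *RIGI* (1.01), *IFIH1* (0.84) and *DHX58* (0.73). *STING1* is the only sensor whose rise with IFNγ was larger in the libraries labelled 786-O past the threshold. Line and instrument cannot be told apart in any of these. No PD-L1 siRNA was present in the 6 differences with control siRNA, and in the other 10 the depth of *CD274* silencing also differed between the lines. Single outlying libraries were not tested for in groups of 3.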

How the results depend on the processing

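The counts of sensors that rose with IFNγ stayed between 7 and 10 under every alternative run, and no sensor past the threshold changed direction. Among alternatives for single sensors, 2943 of 3014 kept their side of the threshold, with 33 lost and 38 gained. For *CD274* 316 of 324 did, with 8 lost, and for other named genes 8722 of 8891, with 85 lost and 84 gained. The fold threshold mattered most, by construction. With adjusted p alone the count went from 3 to 9 with PD-L1si under IFNγ labelled A498, from 2 to 9 without IFNγ and from 0 to 2 for the interaction, and labelled 786-O from 0 to 2 under IFNγ and 0 to 3 without. Differences between lines went from 4 to 7 for IFNγ in PD-L1si, 3 to 7 for PD-L1si under IFNγ and 3 to 6 without IFNγ. At a log2 fold change over 1 the counts labelled A498 were 1 under IFNγ and 0 without, and the differences fell to 1 for IFNγ in Cnsi, for PD-L1si under IFNγ and for PD-L1si without IFNγ. With each library left out in turn, PD-L1si labelled A498 gave 2 to 3 under IFNγ and 2 to 3 without, and the interaction and both PD-L1si comparisons labelled 786-O gave 0. IFNγ gave 9 in each line and siRNA, and differences between lines gave 5 to 6, 4 to 5, 2 to 3 and 3 to 4. The replicate numbers did not pair the libraries: same-numbered libraries correlated at a mean of 0.0499 labelled A498 and 0.028 labelled 786-O, over 0.1 in 3 and 5 of 18 pairs. The replicate block left 13 of 14 counts as they were and moved the difference for PD-L1si under IFNγ from 3 to 2. The largest median shift under relative log expression was -0.047 on the log2 scale. Depth limits *ZBP1* and the interferon genes, which are at or near 0 without IFNγ, and 3 libraries per group, possibly technical, limit all tests. Transfection was common to all libraries, protein and signaling were not measured, and zeros in the libraries labelled 786-O leave *TLR3* and many pathway genes unassessed there.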

Other observations

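Pairs of libraries of the same group were compared over genes above a minimum summed count, as chi-square per degree of freedom, where counting error alone gives about 1. The values ran from 1.63 to 7.82 labelled A498 and from 1.97 to 24.3 labelled 786-O. The highest involved replicate 1 of PD-L1si labelled 786-O (24.3 and 14.3, against 5.27 for the other pair), replicate 1 of Cnsi IFNγ (16.4 and 12.1, against 5.18) and replicate 3 of Cnsi (10.1 and 11.6, against 1.97). No p was computed for these values.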
